A study of Mus musculus with 6 samples.

Results

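Chromatin accessibility was examined at 10 genes of the integrated stress response, Atf4, Atf5, Atf3, Ddit3, Trib3, Asns, Chac1, Psat1, Slc7a11 and Ddit4, in murine leukemia stem cells (LSCs) treated with or without mycophenolate mofetil (MMF). The genes were chosen by their known place in this pathway, and every ATAC-seq peak that overlapped a gene body or the 15 kb on either side of it was taken, on mm10 with GENCODE M21 gene models. The 6 peak lists gave 333 such peaks, which merged into 69 regions of the 112852 in the whole genome. No region belonged to more than 1 of the 10 genes.

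The samples were 3 Control and 3 MMF samples of L-GMPs, leukemic granulocyte-macrophage progenitors, which are the LSC fraction of the mouse leukemia driven by the MLL-AF9 fusion. All 6 carried this leukemia, were labelled WT for genotype, and were grown in medium with mouse IL3, and the MMF samples had the drug for 24 h per the labels, while the study's figure legends give a shorter time. MMF blocks inosine monophosphate dehydrogenase, the enzyme that commits purine synthesis to guanine nucleotides. The labels name the material a cell line and give no animal for each sample, so the p-values below measure the spread between samples, which may be technical.

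The integrated stress response starts when kinases that sense amino acid shortage, unfolded protein, heme shortage or double-stranded RNA phosphorylate the translation factor eIF2. General protein synthesis then falls while the Atf4 mRNA is translated, and ATF4, paired with a C/EBP protein, binds the C/EBP-ATF response element in genes for amino acid uptake, amino acid synthesis and stress control. In leukemia cells this program is known for adjusting amino acid and redox supply and, when prolonged, for promoting cell death.

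The core of that element, TGATGNAA on either strand, was searched in the GRCm38 (mm10) sequence of each region, over the 300 bp around its highest summit. It was found in 6 of the 10 promoter regions of these genes, against 1.88% of the 10463 promoter regions of protein-coding genes. Among all 69 regions 11 held it, 15.9%, against 6.69% of the 112852 regions of the genome. The stretches with the core are shown so that promoters that rose, fell or were not called below can be compared, with a called distal region each of Ddit4 and Atf3. The called regions inside Slc7a11, past the ends of Asns, Chac1 and Atf4, and at the Psat1 promoter held no core in their windows. They are written 5′ to 3′ on the strand of the gene, and capitals mark the core or its reverse complement. The stretches of Slc7a11, Atf3 and Trib3 end at the base before the transcription start, and those of Chac1 and Ddit3 end further upstream. Of Asns only the core and its flanks are given, because it lies in the annotated 5′ UTR.
Slc7a11 promoter, chr3:50443615-50443764, minus strand: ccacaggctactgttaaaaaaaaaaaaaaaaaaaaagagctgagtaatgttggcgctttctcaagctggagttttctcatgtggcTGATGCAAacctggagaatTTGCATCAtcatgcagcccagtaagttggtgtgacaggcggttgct
Atf3 promoter, chr1:191183341-191183490, minus strand: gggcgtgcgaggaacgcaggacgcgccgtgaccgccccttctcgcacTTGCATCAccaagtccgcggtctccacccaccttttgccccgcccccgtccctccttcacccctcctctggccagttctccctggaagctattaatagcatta
Trib3 promoter, chr2:152344033-152344182, minus strand: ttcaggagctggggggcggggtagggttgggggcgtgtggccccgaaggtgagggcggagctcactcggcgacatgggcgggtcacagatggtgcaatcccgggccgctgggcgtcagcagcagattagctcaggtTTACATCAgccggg
Chac1 promoter, chr2:119350978-119351127, plus strand: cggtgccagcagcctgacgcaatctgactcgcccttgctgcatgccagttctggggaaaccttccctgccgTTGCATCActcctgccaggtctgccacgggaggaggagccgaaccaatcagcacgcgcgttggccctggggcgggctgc
Ddit3 promoter, chr10:127290426-127290565, plus strand: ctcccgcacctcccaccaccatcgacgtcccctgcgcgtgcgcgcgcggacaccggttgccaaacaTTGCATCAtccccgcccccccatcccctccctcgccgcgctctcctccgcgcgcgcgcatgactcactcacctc
Asns promoter, chr6:7693214-7693243, minus strand: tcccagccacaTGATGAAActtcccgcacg
Ddit4 downstream region, chr10:59943639-59943798, minus strand: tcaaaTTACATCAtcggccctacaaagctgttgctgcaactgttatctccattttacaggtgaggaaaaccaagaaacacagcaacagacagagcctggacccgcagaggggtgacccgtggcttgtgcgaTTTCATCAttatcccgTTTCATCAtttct
Atf3 intronic region, chr1:191201367-191201466, minus strand: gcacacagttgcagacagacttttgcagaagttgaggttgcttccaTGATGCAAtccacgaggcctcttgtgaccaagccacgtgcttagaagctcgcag

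The Slc7a11 stretch holds a pair of cores in opposite orientation. The Trib3 promoter carries the form TGATGTAA and Asns TGATGAAA, while Atf3, Ddit3, Chac1 and Slc7a11 carry TGATGCAA. The Atf3 window held another core past the transcription start. No match was found in these windows at the Atf4, Atf5, Psat1 and Ddit4 promoters, which says only that these letters are not in those 300 bp. A weaker Psat1 region, 830 bp inside a start and with a peak in 1 Control and 3 MMF lists, held TGATGAAA. A match is a description of the sequence and was not tested as a bound site.

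The value used for a region is its scaled summit reads, the reads at the top of its highest peak, as a whole number, divided by the genome-wide background of the sample, the reads expected by depth over 150 bp. The authors called peaks on each sample separately, and the Control lists held 58496 to 63911 peaks against 80893 to 86556 with MMF, at backgrounds of 0.620 to 0.729 and 0.676 to 0.909 reads. Median summits held 14 to 19 reads. Regions with a peak in all 6 lists, 41182 in the genome, were tested with limma on the log2 scale, and adjusted p below 0.05 was taken as a call. Of these, 21.8% were higher and 3.09% lower with MMF, so 87.6% of the calls were higher. That split depends on the scaling. The median level over shared regions was 0.35 higher in MMF than in Control samples on the log2 scale, and after each sample was centred on its own median 25.7% of the calls were higher, while centring on the median ratio, a shift of 0.18, gave 54.0%. Differences below are scaled to depth, and the centred value, which is 0.35 lower for every region, is given where it changes a call.

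The marker genes fixed for the cells were read as peaks within 1000 bp of a transcription start. Of 9 genes of myeloid leukemia progenitors, Ptprc, Kit, Spi1, Hoxa9 and Meis1 had a promoter peak in all 6 lists, and Mpo had none in any list. The 4 T cell and 4 B cell genes had no promoter peak in any list. Of the erythroid genes Klf1 had a peak in all 6 lists and Gata1 in none. The summed scaled reads of the 4 mature neutrophil genes were 61.8 to 70.9 in Control and 120.4 to 140.4 in MMF samples, with Camp and Mmp8 in all 6 lists and Ltf in the MMF lists alone. Camp had 11.6 to 27.4 in Control and 56.2 to 62.3 in MMF samples. The groups overlapped at Mmp8, and Ly6g had a peak in 2 lists of each group. The summed myeloid list was 318 to 336 in Control and 380 to 451 in MMF samples, with a gene without a peak taken as 0, and its members went both ways. Hoxa9 had 63.1 to 69.4 scaled reads in Control and 48.4 to 53.8 in MMF samples, and Meis1 85.5 to 114 and 76.9 to 79.3, while Fcgr3 had a peak in 1 Control list and in all 3 MMF lists. These sums move with the treatment, and their part in the results below was not tested. In a bulk sample, fewer cells with an open site and less accessibility per cell cannot be told apart.

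Across the 10 genes, the calls away from promoters were all upward as scaled to depth, as most such calls in the genome were. The calls at promoters went both ways. Of the 69 regions 39 had a peak in all 6 lists, and 10 of these rose and 3 fell with MMF, beside backgrounds of 21.8% and 3.09%, so the count of risen regions was near that of the genome. After centring, 4 rose and 14 fell, beside 8.76% and 25.3%. Of the 25 tested regions away from any promoter, 8 rose and 0 fell, where 28.6% and 1.75% of such regions did so in the genome. These counts too were near those of the genome. At an unadjusted p below 0.05 by limma 12 were higher and 0 lower, beside 38.0% and 3.43%, and centring on the sample median gave 3 higher and 2 lower, beside 11.7% and 12.5%. Of the 10 promoter regions, 2 rose, those of Slc7a11 and Atf3, and 2 fell, those of Trib3 and Psat1, where 3.58% and 6.58% of coding promoters did so. After centring, 1 promoter region rose and 8 fell, where 1.13% and 60.7% of coding promoters did. The median difference was -0.22 over the 10 promoter regions and 0.42 over the 25 regions away from promoters, beside -0.10 over all coding promoters and 0.32 over all regions away from promoters.

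**Figure D1:**
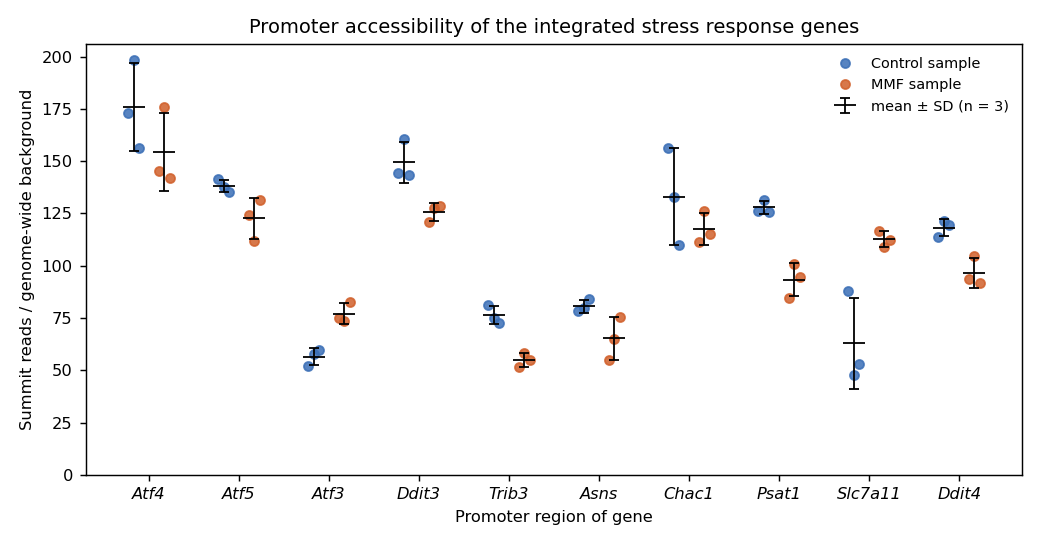
Scaled summit reads (summit reads divided by genome-wide background, linear axis from 0) at the promoter region of each of the 10 genes, with 1 point for each of 3 Control and 3 MMF samples and the mean ± SD as bars. The MMF samples lie above all Control samples at Atf3 and Slc7a11, overlap them at Atf4 and Chac1 and lie below them at the other 6 genes.

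Atf4 encodes the central transcription factor of the response, whose output is set largely by translation. Its promoter region, chr15:80254894-80256192, had the highest Control level of the 10, with 173, 198 and 156 scaled reads in Control and 145, 176 and 142 in MMF samples. The groups overlapped, and the difference of -0.19 (SE 0.111) on the log2 scale did not pass the test (limma adjusted p = 0.22). After centring it was -0.54 and called lower (adjusted p = 7.59e-05). The region at 17294 bp past the start, an intergenic site at chr15:80272139-80272972, had 46.7, 49.2 and 64.5 scaled reads in Control and 77.0, 80.7 and 94.6 in MMF samples. All MMF samples were above all Control samples there, a rise of 0.66 (SE 0.162, adjusted p = 0.0011), which after centring was 0.31 and no longer called (adjusted p = 0.13).

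Within the Atf4 window a region at the promoter of the neighbouring Rps19bp1 fell. It had 78.2, 88.2 and 98.4 scaled reads in Control and 51.7, 76.5 and 71.0 in MMF samples, a difference of -0.42 (SE 0.155, adjusted p = 0.033). The groups did not overlap, but the call was lost without Control 2, Control 3 or MMF 1 (adjusted p from 0.0766 to 0.30).

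Atf5 encodes a related basic leucine zipper factor that is also translated under stress and promotes genes of mitochondrial protein quality. Its promoter region, chr7:44815630-44816761, which also covers starts of Il4i1 and Nup62, had 141, 137 and 135 scaled reads in Control and 124, 112 and 132 in MMF samples. The MMF samples lay below the Control samples by a small margin, and the difference of -0.17 (SE 0.118) did not pass (adjusted p = 0.30) unless samples were centred (-0.53, adjusted p = 0.00029). Of the 3 regions of Atf5 none was called by limma as scaled to depth, and 1 was higher at an unadjusted p below 0.05.

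Atf3 encodes a stress-induced factor that acts downstream of ATF4 and can repress its own and other stress genes. Its highest promoter region, chr1:191182380-191183741, had 52.1, 57.9 and 59.7 scaled reads in Control and 74.8, 73.7 and 82.8 in MMF samples. The MMF samples were all above the Control samples, a rise of 0.45 (SE 0.160, adjusted p = 0.030). The call was lost without Control 1, MMF 1 or MMF 3 (adjusted p from 0.0622 to 0.12), and the centred difference was 0.09 (adjusted p = 0.68). The call was also not made on ranks, on fold enrichment, on summed peaks or without a variance trend (adjusted p from 0.077 to 0.58). An intronic region of Atf3, chr1:191201157-191201584, whose core is printed above, had 53.5, 49.2 and 67.7 scaled reads in Control and 84.7, 77.9 and 79.8 in MMF samples. It rose by 0.52 (SE 0.160, adjusted p = 0.010), with no overlap between groups. That call was lost without Control 2 (adjusted p = 0.068) or MMF 1 (adjusted p = 0.053), and after centring (0.17, adjusted p = 0.44). The other 5 tested regions of Atf3 lay between -0.30 and 0.43, and none of them was called as scaled to depth. The lowest of them, an intronic site, was called lower after centring (-0.66, adjusted p = 0.0014).

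Ddit3 encodes CHOP, the factor that links a prolonged response to cell death. Its promoter region, chr10:127290231-127291064, had 144, 161 and 143.5 scaled reads in Control and 121, 128 and 129 in MMF samples. All MMF samples were below all Control samples, but the difference of -0.25 (SE 0.115) did not pass (adjusted p = 0.11) unless samples were centred (-0.60, adjusted p = 3.07e-05). The promoters of its neighbours Mbd6 and Mars differed by -0.01 and -0.10 and were not called, but were lower after centring (adjusted p of 0.016 and 0.0034). None of the 3 tested regions of Ddit3 was called as scaled to depth, with 1 lower at an unadjusted p below 0.05.

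Trib3 encodes a pseudokinase that is switched on by ATF4 and CHOP, binds ATF4 and AKT, and restrains both. Its promoter region, chr2:152343367-152344467, had 81.0, 75.2 and 72.6 scaled reads in Control and 51.7, 58.1 and 54.7 in MMF samples, from 59, 52 and 45 reads over the summit against 47, 41 and 37. The highest MMF sample lay well below the lowest Control sample. The region fell to 0.72 of its Control level, -0.48 on the log2 scale (SE 0.161, adjusted p = 0.021), and -0.83 after centring. The call was lost without Control 1 (adjusted p = 0.084) or MMF 1 (adjusted p = 0.078), and it was not made on ranks, on fold enrichment, on summed peaks or without a variance trend (adjusted p from 0.0595 to 0.69). The other 3 regions of Trib3 were in all 6 lists. An intronic site of Rbck1 had 22.0, 17.4 and 14.5 scaled reads in Control and 25.3, 26.9 and 25.1 in MMF samples, which did not overlap, with a difference of 0.54 that did not pass (adjusted p = 0.13). The Rbck1 promoter and a site upstream of Trib3 in an intron of Gm14164 differed by -0.01 and -0.05 and were not called, and the former was lower after centring (-0.36, adjusted p = 0.032).

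**Figure D2:**
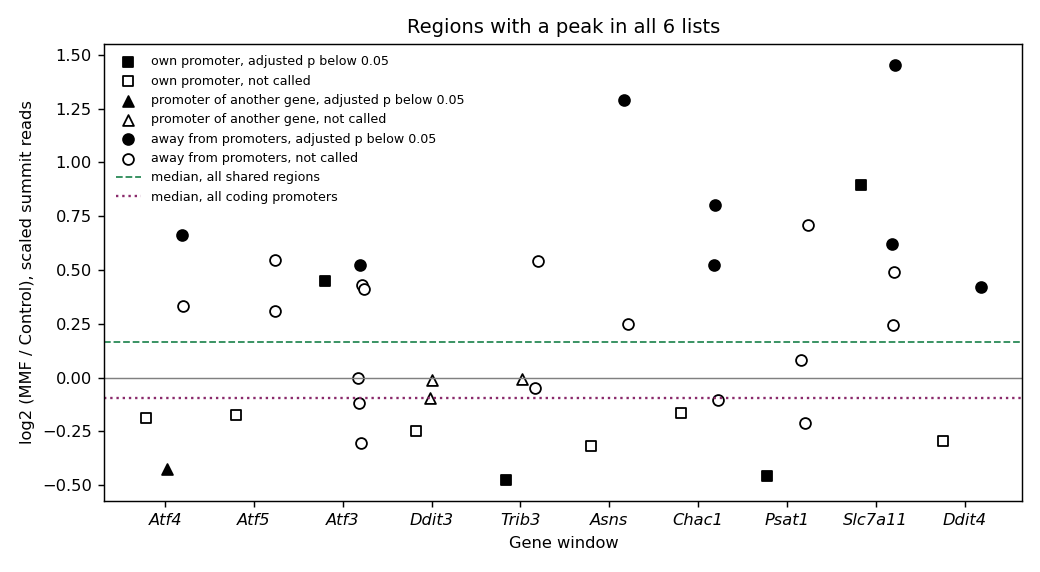
Difference between MMF and Control in scaled summit reads (log2, MMF over Control) for the 39 regions with a peak in all 6 lists, by gene, with squares for the gene's own promoter, triangles for the promoter of another gene, circles for other regions, and filled symbols for adjusted p below 0.05 (limma). The 8 filled circles all lie above 0, while the promoters of Atf3 and Slc7a11 lie above 0 and the other 8 below it. Dashed and dotted lines mark the medians of all shared regions (0.17) and of all coding promoters (-0.10), and centring on the sample median lowers every value by 0.35.

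The enzymes of amino acid supply come next. Asns encodes asparagine synthetase, a classical target of ATF4. Its promoter region, chr6:7692844-7693450, had 78.2, 79.5 and 83.8 scaled reads in Control and 55.0, 65.2 and 75.4 in MMF samples. The MMF samples were the lower and the more spread, and the difference of -0.32 (SE 0.155) did not pass (adjusted p = 0.13) unless samples were centred (-0.67, adjusted p = 0.00042). It was -0.20 without MMF 1. The intergenic region at 24378 bp past the start, chr6:7668355-7668668, had 24.7, 15.9 and 11.3 scaled reads in Control and 39.6, 55.2 and 29.6 in MMF samples. It rose 2.44-fold, 1.29 on the log2 scale (SE 0.265, adjusted p = 0.00011). The call held with any 1 sample left out and after centring (0.93) and was lost on ranks (adjusted p = 0.11). A region upstream of Asns, chr6:7696710-7696925, had no peak in any Control list and 24.2, 21.2 and 25.1 scaled reads in MMF samples.

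Psat1 encodes phosphoserine aminotransferase, which makes serine with Phgdh. The GENCODE basic set puts its start inside the longer gene entry, and the promoter region there, chr19:15924330-15925466, had 126, 132 and 126 scaled reads in Control and 84.7, 101 and 94.6 in MMF samples. All MMF samples were below all Control samples, a fall to 0.73 of the Control level, or -0.46 (SE 0.127, adjusted p = 0.0044). It held with any 1 sample left out and was lost on ranks, fold enrichment, summed peaks and without a variance trend (adjusted p from 0.070 to 0.75). A weak region over a 3′ exon had no peak in Control lists and 10.999, 12.8 and 16.3 scaled reads in MMF samples. An intronic site with 19.2, 15.9 and 9.67 scaled reads in Control and 23.1, 19.8 and 28.1 in MMF samples had a difference of 0.71 that did not pass (adjusted p = 0.059).

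Chac1 encodes an enzyme that breaks down glutathione and is induced by ATF4. The promoter region, chr2:119350688-119351629, had 156, 133 and 109.6 scaled reads in Control and 111, 126 and 115 in MMF samples, which overlapped (difference -0.17, SE 0.124, adjusted p = 0.35). The difference was -0.042 without Control 1, and -0.52 and called lower after centring (adjusted p = 0.00063). A region upstream of Chac1 with a difference of -0.10 was also lower after centring (-0.46, adjusted p = 0.019). Past the end of the gene, at 5842 bp from the start, the region chr2:119356776-119357233 had 38.4, 44.8 and 33.9 scaled reads in Control and 67.1, 63.7 and 72.4 in MMF samples. This was a rise of 1.75-fold or 0.80 (SE 0.181, adjusted p = 0.00043) that held with any 1 sample left out and after centring (0.45, adjusted p = 0.044), but not on ranks (adjusted p = 0.067). The next region, at 7250 bp, had 32.9, 43.4 and 59.7 scaled reads in Control and 52.8, 73.7 and 65.04 in MMF samples. Its groups overlapped, and its rise of 0.52 (adjusted p = 0.030) was lost without Control 1, Control 2, MMF 2 or MMF 3 (adjusted p from 0.0653 to 0.27) and after centring (adjusted p = 0.51).

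Slc7a11 encodes the light chain of the cystine and glutamate antiporter, which feeds glutathione synthesis and is induced by ATF4 and by oxidative stress. It held the most regions of the 10 genes, 17, in part because its gene entry spans 551089 bp, and the count of its regions with a peak was 7, 9 and 5 in Control lists and 13, 15 and 10 in MMF lists. The promoter region, chr3:50443336-50443934, had 87.8, 47.7 and 53.2 scaled reads in Control and 117, 109 and 112 in MMF samples, from 64, 33 and 33 reads over the summit against 106, 77 and 76. Control 1 was higher than the other Control samples, and still below every MMF sample. The rise was 1.86-fold or 0.89 (SE 0.154, adjusted p = 5.69e-06), and 0.54 after centring (adjusted p = 0.0044). It held with any 1 sample left out and was lost on ranks (adjusted p = 0.16) and on fold enrichment (adjusted p = 0.10).

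The largest difference among the 39 tested regions was in the first part of Slc7a11. An intronic region at 5395 bp past the start, chr3:50438039-50438460, had 20.6, 20.2 and 22.6 scaled reads in Control and 55.0, 68.0 and 51.7 in MMF samples, from 15, 14 and 14 reads over the summit against 50, 48 and 35. The lowest MMF sample was above the highest Control sample by a wide gap. This region rose 2.74-fold, 1.45 on the log2 scale (SE 0.219, adjusted p = 3.16e-07), and 1.10 after centring. It passed the test under every alternative that could be fitted for it. On ranks it was the 1 call among the 39 regions, and on fold enrichment the 4 calls were this region, those past the ends of Asns and Chac1 described first, and the Atf3 intronic site.

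Around it, peaks were called in MMF lists where Control lists had none. At 7017 bp past the start MMF samples had 18.7, 24.1 and 29.6 scaled reads, and at 7632 bp they had 17.6, 26.9 and 22.2. Further in, at 37516 bp, a region had 25.3, 32.6 and 26.6 scaled reads in MMF samples and no Control peak. Its neighbour at 36672 bp was in all 6 lists with 46.7, 41.9 and 24.2 scaled reads in Control and 44.0, 69.4 and 56.2 in MMF samples. The groups overlapped there, and the rise of 0.62 (adjusted p = 0.019) was lost without Control 3 (adjusted p = 0.26) or MMF 2 (adjusted p = 0.18) and after centring (adjusted p = 0.33).

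**Figure D3:**
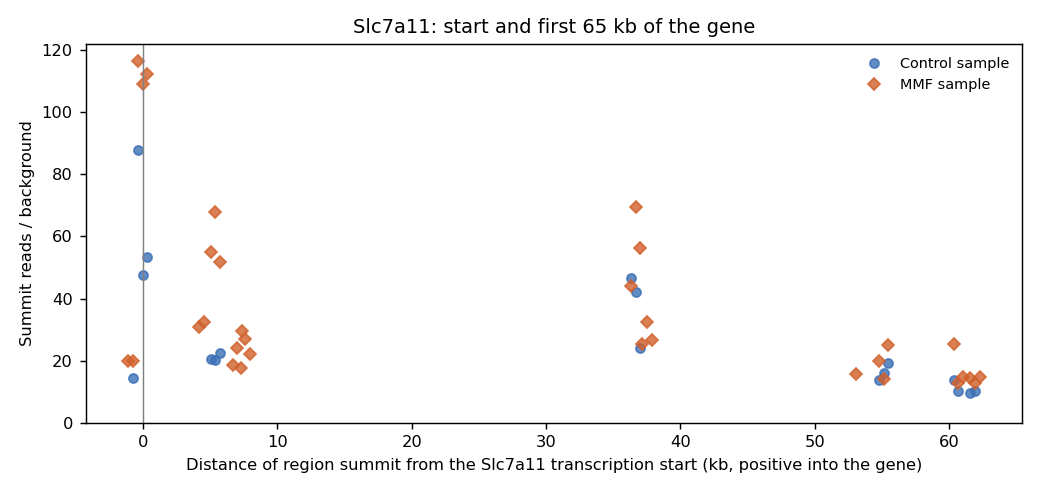
Scaled summit reads (linear axis from 0) of each Control (circles) and MMF (diamonds) sample at the Slc7a11 regions near the transcription start, against the distance of the region summit from the start in kb, with the 3 samples of a group set slightly apart sideways. MMF samples lie above Control samples at the start and at the region 5395 bp into the gene, and regions with diamonds alone had no Control peak.

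Ddit4 encodes an inhibitor of the growth kinase complex mTORC1 and is induced by several stresses. Its promoter region, chr10:59951450-59952573, had 114, 121 and 119 scaled reads in Control and 93.5, 105 and 91.6 in MMF samples. The groups did not overlap, and the difference of -0.29 (SE 0.128) did not pass (adjusted p = 0.084) unless samples were centred (-0.65, adjusted p = 4.92e-05). The region downstream of the gene, chr10:59943517-59944027, whose 3 cores are printed above, had 53.5, 56.4 and 58.0 scaled reads in Control and 86.9, 69.4 and 69.5 in MMF samples. Its rise of 0.42 (SE 0.162, adjusted p = 0.046) was lost with any 1 of the 6 samples left out (adjusted p from 0.055 to 0.26) and was 0.06 after centring.

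The 30 regions without a peak in every list were weak, at up to 41.8 scaled reads. Of these, 25 had a peak in more MMF than Control lists, 3 in more Control lists and 2 in equal numbers, and 11 had a peak in 1 list alone. By presence of peaks, 5 were gained, with a peak in all 3 MMF lists and no Control list, and 0 were lost, beside 6.0% and 0.182% of all regions. The gained regions were 1 each at Asns and Psat1 and 3 at Slc7a11. With all lists cut to the length of the shortest, the Asns region and the Slc7a11 region at 37516 bp were still gained. The 69 regions had a peak in 45, 49 and 41 cases in the Control lists and in 57, 60 and 57 in the MMF lists, which is 59.4% to 71.0% and 82.6% to 87.0% of them. Over all regions of the genome these shares were 49.95% to 54.7% and 69.1% to 74.6%.

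Counted without a model, 13 of the 39 tested regions had all MMF samples above all Control samples, and 7 had all MMF samples below, beside 29.1% and 7.68% of shared regions. Of the 10 promoter regions 2 were above and 6 below in this way, beside 6.63% and 17.1% of coding promoters. An exact permutation test of 3 samples against 3 cannot go below p = 0.1, two-sided, which is the value for each of these. Among the uncalled regions with no overlap, an Atf3 intronic site had 23.3, 23.1 and 25.8 scaled reads in Control and 29.7, 35.4 and 32.5 in MMF samples (0.43). The most distal shared Slc7a11 site, 379969 bp from the start, had 20.6, 28.9 and 24.2 scaled reads in Control and 39.6, 31.2 and 32.5 in MMF samples (0.49). A coding exon of Asns had 32.9, 33.3 and 33.9 in Control and 34.1, 42.5 and 42.9 in MMF samples (0.25).

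The wider pathway was read at the promoters of 64 other genes in 7 lists chosen with results of these data known. A promoter region was found for 63, and 60 had a peak in all 6 lists. The Mars promoter is counted here and also among the regions of the Ddit3 window. By limma 0 rose and 8 fell, beside 3.58% and 6.58% of coding promoters, with 0 higher and 15 lower at an unadjusted p below 0.05 beside 5.55% and 14.4%. Of the 60 differences 48 were below 0. The share for all coding promoters was not counted, and their median was also below 0. Ranks and fold enrichment gave 1 higher and 0 lower each. The median difference was -0.14, beside -0.10 for all coding promoters. After centring 49 fell and 0 rose, where 60.7% and 1.13% of coding promoters did. Those that fell were 10 of 13 genes of eIF2 control, 7 of 7 transporters, 8 of 10 synthesis enzymes and 11 of 12 tRNA synthetases. They also were 9 of 11 genes of the unfolded protein response, 2 of 2 partner factors and 2 of 5 stress outputs. Genes named below without a call can thus be called lower after centring.

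Enzymes of serine, one-carbon and other amino acid synthesis had the lowest median, -0.32, and 3 of 10 fell. Phgdh, the first enzyme of serine synthesis, had 56.3, 57.9 and 43.5 scaled reads in Control and 35.2, 34.0 and 25.1 in MMF samples, a fall with a difference of -0.75 on the log2 scale (SE 0.207, adjusted p = 0.0044) that held with any 1 sample left out. It was not called on ranks or fold enrichment (adjusted p = 0.12 on each) or on summed peaks, where it was -0.24 (adjusted p = 0.39). Shmt2, the mitochondrial serine hydroxymethyltransferase, differed by -0.48 (adjusted p = 0.026) and Aldh18a1, which starts proline synthesis, by -0.48 (adjusted p = 0.016). Aldh1l2, with -0.54, did not pass (adjusted p = 0.075). The Shmt2 call was lost without Control 2, Control 3, MMF 1 or MMF 2, with adjusted p from 0.0842 to 0.12, and the Aldh18a1 call without Control 2 (0.073) or MMF 1 (0.21).

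Among 12 aminoacyl-tRNA synthetases, which load amino acids onto tRNA, 3 fell, and the median was -0.18. Yars differed by -0.35 (adjusted p = 0.021), Aars by -0.32 (adjusted p = 0.032) and Cars by -0.30 (adjusted p = 0.046). The Yars call was lost without Control 1 or MMF 1 (adjusted p of 0.12 and 0.066), that of Aars without Control 1, Control 3, MMF 2 or MMF 3 (0.0634 to 0.16), and that of Cars without Control 2, Control 3, MMF 1 or MMF 3 (0.0690 to 0.23). Of 7 amino acid transporters Slc1a5, a glutamine carrier, fell by 0.36 (adjusted p = 0.025). That call was lost without Control 1, Control 2 or MMF 3, with adjusted p from 0.0779 to 0.18. The difference was 0.10 and 0.11 in the other direction on ranks and fold enrichment, where it did not pass. Slc6a9 and Slc7a5 differed by -0.32 and -0.19 without passing.

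None of the 13 genes that set eIF2 phosphorylation and exchange was called by limma, and their median was -0.14. The values furthest from 0 were 0.30 at Eif2ak2, the kinase that senses double-stranded RNA, -0.27 at Eif2b5, a subunit of the exchange factor, and -0.26 at Eif2ak1, the heme-sensing kinase. Of 11 genes of the unfolded protein response of the endoplasmic reticulum, Sdf2l1 fell by 0.32 (adjusted p = 0.046), lost without Control 2, Control 3, MMF 1 or MMF 3 with adjusted p from 0.0537 to 0.34. Xbp1 and Ern1, the factor and the sensor of its splicing branch, differed by -0.25 and -0.23 without passing. The partner factors Cebpg and Cebpb differed by -0.08 and -0.05, and none of 5 tested stress outputs was called, with Stc2 at 0.36, Bbc3 at -0.23 and Tnfrsf10b at 0.14.

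**Figure D4:**
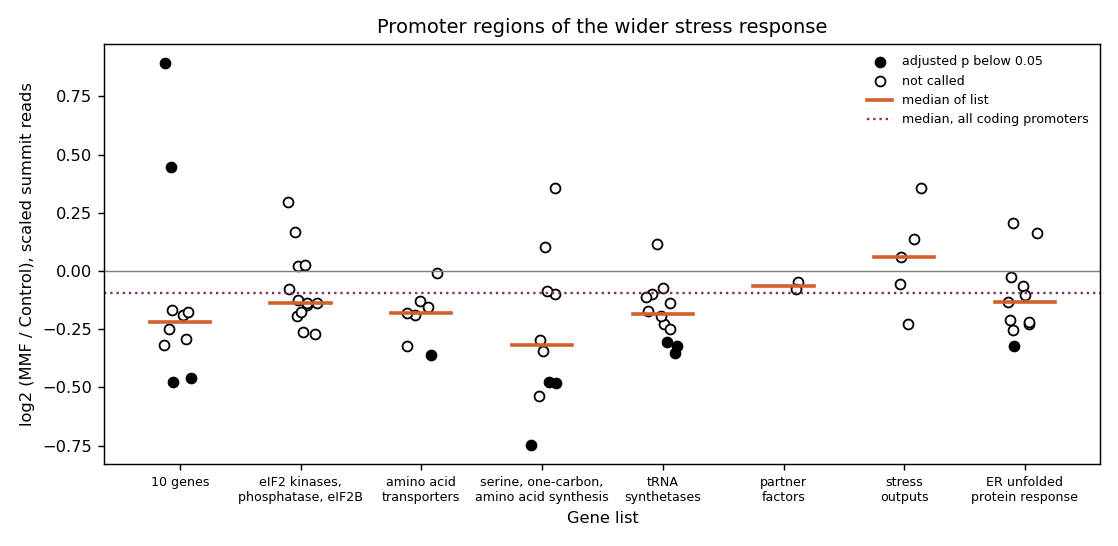
Difference between MMF and Control in scaled summit reads (log2, MMF over Control) at the promoter regions of the 10 genes and of the 7 wider lists, 1 point for a gene, filled for adjusted p below 0.05 (limma), with the median of each list as a bar. The filled points of the wider lists, 8 of 60, all lie below 0, and the dotted line marks the median of all coding promoters (-0.10). Centring on the sample median lowers every value by 0.35.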

How the data were processed

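ATAC-seq was performed on 3 Control and 3 MMF samples of L-GMPs. Per the labels, the authors trimmed reads with Trim Galore, mapped them to mm10 with Bowtie2 and called peaks with MACS2 on each sample. Tool versions and options are not given in the sources used here. In the deposited lists the fold enrichment is a ratio of summit reads to local background, p and q are −log10 values, and the score, 10 times the −log10 p, was not used. Only the 19 autosomes and both sex chromosomes were kept, which left out at most 0.270% of peaks.

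For each peak, whole summit reads and the background were solved from fold enrichment and p. Only whole numbers of reads were tried. For all peaks the −log10 p recomputed from the solution was within a relative 0.0001 of the listed value. Dividing by the genome-wide background corrects for depth, and the values describe called peaks only. Ranks within a list, which depend on its length, were kept as an alternative. Regions are the merged union of the lists, present at an overlap of at least 1 bp. The test, on those with a peak in every list, was limma 3.58.1 (lmFit, then eBayes with a trend; R 4.3.3), two-sided, with Benjamini-Hochberg adjustment over 41182 regions and a threshold of 0.05. On data simulated for this comparison over 41182 regions, with 200 changed, the test called 4 at a log2 change of 0.5, 100 at 1 and 186 at 2 of the 200, with 0, 3 and 11 false calls. The simulation had no overall shift, and its extra spread between samples (dispersion) was at the lowest value allowed, 0.005. In the real data 21.8% of regions were called higher and 3.09% lower. The simulated rates therefore do not give the power or the false calls of the reported test. Promoters are regions within 1000 bp of a GENCODE M21 start, the highest where a gene had several. Python 3.11.15, pandas 2.3.3, numpy 2.4.6 and scipy 1.17.1 were used.

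The 10 genes, the lists, the tests and the alternatives were chosen with earlier results of these data known. Named are all 10 genes with their promoter, called, gained or lost regions, other regions whose groups did not overlap, and, in the wider lists, called genes and up to 3 with the largest difference. No list was a copy of another.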

Additional observations from a re-analysis of the deposited data

How the results depend on the processing

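The values cover called peaks, weak regions rest on few reads, and the direction of small differences depends on the scaling. On ranks and on fold enrichment 1 and 4 regions at the 10 genes were higher instead of 10, and 0 and 0 lower instead of 3. Over all 41182 shared regions 3186 and 5501 were higher instead of 8958, and 97 and 133 lower instead of 1271, so calls were fewer across the genome too. Promoter regions gave 0 higher and 0 lower on both, and the wider promoters 1 higher and 0 lower on both. Centring on the sample median gave 4 higher and 14 lower regions, 1 higher and 8 lower promoters and 49 lower wider promoters. Centring on the median ratio, added after the data were seen, gave 5 and 10, 1 and 8, and 30 lower. Over all shared regions the sample median gave 3609 higher and 10423 lower, and the median ratio 5659 and 4830. Calls over all coding promoters were counted only as scaled to depth and after centring on the sample median. Requiring peaks to cover 50% of a region left 25 regions and 7 promoters to test. It gave 5 higher and 1 lower, and 1 higher and 0 lower promoters. Of the 25903 regions tested in the genome under this rule, 4639 were higher and 988 lower. The called promoters of Atf3, Trib3 and Psat1, the called Asns site and the called intronic Slc7a11 sites could not be tested there. Summing peaks gave 6 and 0, 1 and 0, and 1 higher and 1 lower wider promoter. Without the trend limma gave 5 and 0, 1 and 0, and 1 lower wider promoter. The cause of these changes was not tested.

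The median difference of 0.25 was -0.11 after centring on the sample median, 0.069 on the median ratio, and -0.0062 both with 50% cover and with 5 kb windows, which hold fewer regions. At equal list length 2 regions were gained instead of 5. On ranks and fold enrichment the uncalled Atf4 promoter turned to 0.078 and 0.11, Atf5 to 0.13 and 0.15, Chac1 to 0.34 and 0.17, and Slc1a5 to 0.10 and 0.11.

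Leaving out each sample in turn gave 7 to 9 higher and 1 to 3 lower regions, the 1 without MMF 1. It gave 1 to 2 higher and 1 to 2 lower promoters, 0 higher and 3 to 7 lower wider promoters, 5 to 7 gained and 0 lost regions and a median of 0.15 to 0.33. Over all regions tested in the genome the same fits gave 6603 to 8962 higher and 782 to 1140 lower. The wider count was 3 without MMF 1, 4 without Control 3 or MMF 3 and 5 without Control 2. Of 471 values of named regions and promoters under alternatives, 326 kept their direction and side of the threshold, 125 lost and 12 gained a call, and 8 turned.

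Samples with the same replicate number did not deviate together (r from -0.0026 to 0.0039), so the numbers were not taken as pairs. With the replicate number as a block, 10 regions were higher and 3 lower, 2 promoters higher and 2 lower, and 0 wider promoters higher and 8 lower, the same counts as without it. Over all shared regions the block gave 8889 higher and 1289 lower. A −log10 q of at least 2 gave 10 higher and 3 lower regions at the 10 genes. Equal list length gave 11 and 3, as did a peak in at least 2 lists of each group. Over all tested regions these gave 8671 and 1268, 8924 and 1237, and 10820 and 1252. Promoters stayed at 2 higher and 2 lower in these fits and at 500 bp, with 0 wider promoters higher and 6 to 8 lower. Windows of 5 kb gave 7 higher and 2 lower regions.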

Other observations

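Atf3 has 2 annotated groups of starts, and the region 936 bp inside the more distal one had a peak of 10.98 scaled reads in Control 1 alone and of 23.1, 19.8 and 20.7 scaled reads in the MMF samples. The intronic site beside it, 1752 bp inside that start, was in all 6 lists and differed by -0.12 on the log2 scale (limma adjusted p = 0.80).

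Among all 41182 shared regions, the 2410 whose 300 bp window held the TGATGNAA core had a median difference of 0.48, beside 0.17 for all shared regions. These sets are unlike, because 197 of the 2410 but 10463 of the 41182 were coding promoters. All shared regions away from promoters had a median of 0.32. The 10 regions with the core at the 10 genes, mostly promoters and including that of Mars, had a median of -0.07. The 6 promoters of these genes among them had -0.21. The 197 coding promoters with the core had a median of -0.03, beside -0.10 for all coding promoters. Of the other elements of the pathway, the CRE, TGACGTCA, was in 3.79% of coding promoters and in 1 of the 69 regions, an uncalled Psat1 site, and the consensus of the ER stress element was in 0.134% of coding promoters and in 0 of the 69. With the shared regions split into 5 equal groups by mean scaled reads, the median difference was 0.30, 0.36, 0.30, 0.14 and -0.09 from the lowest to the highest group. The 10 promoter regions had Control means of 56.6 to 176. The promoters that rose, Atf3 and Slc7a11, had the lowest of these, 56.6 and 62.9, and the others had 76.2 to 176. The part of height in their direction was not tested.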
